A study of Danio rerio with 15 samples.

Results

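Zebrafish larvae that lack tfeb, tfe3a and tfe3b were compared with and without an injection of zymosan A, at 4 days after fertilization and over all genes. The comparison sets 3 libraries of injected triple mutants against 3 of uninjected triple mutants, which are 6 of the 15 libraries of the series. Members were taken from the genotype and treatment given in the labels. Of the 24609 genes in the deposited count tables, 19006 had enough counts to be tested. All larvae were of the TL strain and were kept at 28.5 ºC, and their water held methylene blue and PTU, an inhibitor of pigment synthesis. Wild-type larvae, 3 libraries with zymosan and 3 without, are used for comparison. The remaining 3 libraries, of uninjected rraga mutants of the same age, enter the shared statistical model and are quoted for a few genes. Per the labels' protocols, injected larvae were examined under a confocal microscope and snap frozen before RNA extraction. No group received a mock injection, and the time from injection to freezing and the hour of collection are not given in the sources used here. Injection, handling, imaging and time of collection therefore cannot be told apart from zymosan. The mutant alleles and the number of larvae per library are not given in the sources used here either. The study's stated question was how far Tfeb and Tfe3 switch on lysosomal genes when inflammation is provoked.

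Zymosan is a preparation of yeast cell wall, rich in glucans, that macrophages and neutrophils recognise and engulf. Recognition starts NF-κB and AP-1 signalling and the release of cytokines, and cytokines of the interleukin-6 family act through Stat3 to switch on acute phase genes in the liver. Tfeb and Tfe3 belong to the MiT/TFE family of transcription factors. They move to the nucleus when mTORC1 activity at the lysosome falls, and they bind to promoters of lysosomal and autophagy genes. In mammals they have also been tied to the expression of cytokine genes in macrophages.

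The 6 libraries held between 12314113 and 15131328 counts, of which 7.99% to 10.66% came from the mitochondrial genome. Levels are given as CPM, counts scaled to a common library size. Genes defining skeletal muscle, lens, liver, exocrine pancreas and brain were all detected, with between 122200 and 167500 CPM from 56 skeletal muscle genes, as for larvae rather than an isolated tissue. In multidimensional scaling of the 6 libraries, the first dimension placed the 3 injected libraries between 0.94 and 1.05 and the 3 uninjected between -1.04 and -0.91. The second dimension set uninjected replicate 1 apart, at 1.28 against -0.49 and -0.84. Uninjected replicates 1 and 2 differed at 15.9 chi-square per degree of freedom, replicates 2 and 3 at 8.5 and replicates 1 and 3 at 6.16. By this measure replicate 2 was the further from the others. With all libraries, 1471 genes rose and 995 fell in triple mutants, and 30 differed between genotypes. Without uninjected replicate 1 these counts were 1214, 815 and 26. Without uninjected replicate 2 they were 1117, 707 and 40. Wild-type zymosan replicate 3 differed from the other libraries of its group more than any other pair within the 4 groups, at 24.8 and 22.9 chi-square per degree of freedom against 5.58 between the others. The number of genes with a difference between genotypes and the opsin differences are therefore given without this library as well.

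The targeted genes were examined first. Coordinates are on GRCz11 as in the deposited tables, log2 fold changes are given ± SE, and group means ± SD (n = 3). The uninjected mutant libraries held tfeb transcript (ENSDARG00000010794, chromosome 11, 22287954 to 22361306) at 7.26, 11.9 and 8.03 CPM and the zymosan libraries at 11.4, 11.2 and 12.2 CPM. The groups overlapped and the gene did not pass the test (log2 fold change 0.35 ± 0.20, adjusted p = 0.303). For tfe3a (ENSDARG00000098903, chromosome 8, 7778770 to 7809451) the values were 2.76, 2.95 and 1.201 CPM without and 3.64, 5.69 and 3.08 CPM with zymosan (log2 fold change 0.83 ± 0.36, adjusted p = 0.139). Transcript of tfe3b (ENSDARG00000019457, chromosome 11, 25504215 to 25519837) had 5 counts in all without zymosan and 13 with it, nearly all in replicate 3 (log2 fold change 1.43 ± 0.98, adjusted p = 0.398). In wild type tfe3b had 1.68 ± 0.481 CPM without and 2.85 ± 0.582 CPM with zymosan. The level of tfe3b was therefore low in all 6 mutant libraries, and the labels do not say which change the alleles of tfeb and tfe3a carry, so that their transcript levels do not check the genotype. Of the 6 tested genes of the MiT/TFE family, 0 were called in triple mutants. The melanocyte factor gene mitfa was called in wild type, where it fell (log2 fold change -1.36 ± 0.30, adjusted p = 0.00244), and stood at 5.39, 7.24 and 5.18 CPM without and 2.90, 3.79 and 3.87 CPM with zymosan in triple mutants (log2 fold change -0.76 ± 0.28, adjusted p = 0.0812).

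Zymosan-injected triple mutants differed from uninjected triple mutants in 2466 genes, 13% of those tested, at a Benjamini-Hochberg adjusted p under 0.05 in edgeR's quasi-likelihood test. Of these, 1471 rose (7.74% of genes tested) and 995 fell (5.24%). The rise was over 2-fold in 506 genes and over 8-fold in 52, and the fall was over 2-fold in 233 and over 8-fold in 11. The libraries of the 2 groups did not overlap in 2428 of the 2466 genes. These genes were called from the same libraries, so the count adds no evidence. The same holds for each called gene described below as having no overlap or libraries far apart. The share without overlap over all tested genes was not computed. The median log2 fold change over all tested genes was 0.00. In wild type, 1184 genes rose (6.23%) and 755 fell (3.97%). Genes that rose in both genotypes numbered 841, which is 57.2% of those that rose in triple mutants and 71.0% of those that rose in wild type. A fall in both was seen in 422 genes, 42.4% and 55.9% of those that fell in triple mutants and in wild type. Just 1 gene, cyp2n13, was called in opposite directions. The response itself differed between the genotypes in 30 genes, 0.158% of those tested, by the interaction term of the same model (1078 at an unadjusted p under 0.05). The part of handling, imaging and hour of collection in this difference was not tested. Of the 1202 genes called in triple mutants and not in wild type, 1109 had the same sign in wild type and 6 passed the interaction test. The count of falling genes was 642 without triple-mutant zymosan replicate 3, and the interaction count was 56 without wild-type zymosan replicate 3.

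**Figure D1:**
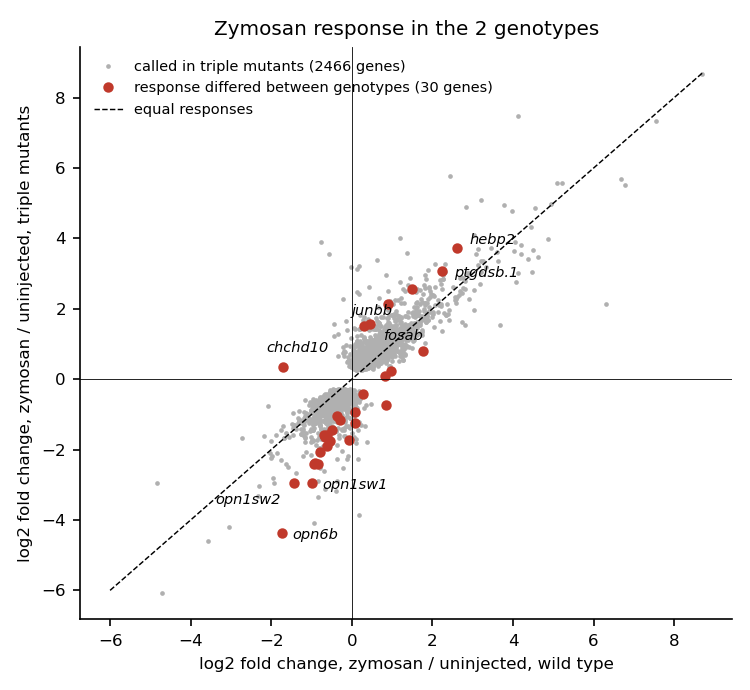
Log2 fold change with zymosan in wild type (horizontal axis) and in triple mutants (vertical axis) for the 2466 genes called in triple mutants (grey) and the 30 genes whose response differed between genotypes (red). Most points lie near the dashed line of equal responses, and cone opsin genes lie below it.

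Genes of the inflammatory response rose in triple mutants. Of 61 tested genes for cytokines, chemokines, their receptors, the NF-κB pathway and inflammatory enzymes, 18 rose (29.5%, against 7.74% of all genes) and 0 fell, with a median log2 fold change of 0.52. In wild type 20 rose and 1 fell, and 0 of the 61 passed the interaction test. Transcript of il6st, the shared receptor subunit gp130 of interleukin-6 cytokines, went from 40.4, 37.6 and 37.9 CPM to 120.5, 122 and 111 CPM. The 3 injected libraries lay far above the 3 uninjected (log2 fold change 1.61 ± 0.13, adjusted p = 1.46e-09). The tumor necrosis factor receptor gene tnfrsf1a went from 10.4, 9.58 and 10.6 CPM to 31.2, 31.0 and 26.0 CPM, again with no overlap (log2 fold change 1.53 ± 0.17, adjusted p = 2.24e-07). Among receptors, il10rb, for a subunit of the interleukin-10 receptor, rose less, from 20.2, 18.9 and 18.9 CPM to 26.6, 27.4 and 36.6 CPM (log2 fold change 0.64 ± 0.13, adjusted p = 0.00115).

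The chemokine gene cxcl18b, whose product attracts neutrophils in zebrafish, was near 1 CPM without zymosan, at 0.691, 1.003 and 1.13 CPM, and rose to 9.07, 7.18 and 7.02 CPM (log2 fold change 3.03 ± 0.33, adjusted p = 8.62e-08). In wild type it went from 0.506 ± 0.328 CPM to 11.595 ± 2.57 CPM (log2 fold change 4.46 ± 0.36, adjusted p = 5.39e-10), and the difference between the genotypes did not pass (-1.43 ± 0.51, adjusted p = 0.594). The cytokine gene il1b, chosen after its values were seen, had 2 counts over the uninjected mutant libraries and 34 over the injected, a ratio of 18.4 with a 95% counting interval of 4.72 to 158.0. Its counts were 1 and 42 in wild type. At such counts the size of the rise is known only roughly. Of the inflammatory enzymes and adhesion molecules, 6 of 11 rose, the largest share of the 4 subgroups. Heme oxygenase transcript (hmox1a) went from 0.829, 0.669 and 0.901 CPM to 2.53, 11.103 and 4.08 CPM (log2 fold change 2.89 ± 0.44, adjusted p = 2.86e-05), and the injected libraries were spread over a wide range, with replicate 2 highest. The metalloreductase gene steap4 went from 12.1, 14.6 and 15.1 CPM to 40.4, 39.0 and 33.3 CPM (log2 fold change 1.43 ± 0.17, adjusted p = 3.49e-07), and the stress gene gadd45ba from 4.77, 6.74 and 6.46 CPM to 16.5, 12.3 and 10.7 CPM (log2 fold change 1.13 ± 0.23, adjusted p = 0.000754). Some inflammatory genes passed in wild type alone. The flagellin receptor gene tlr5b stood at 6.57, 6.13 and 6.91 CPM and 4.91, 6.57 and 4.51 CPM in triple mutants (log2 fold change -0.29 ± 0.23, adjusted p = 0.478) and rose in wild type from 4.09 ± 0.764 CPM to 7.67 ± 1.12 CPM (log2 fold change 0.90 ± 0.23, adjusted p = 0.0104). The same test of the difference gave adjusted p = 0.254 for tlr5b and adjusted p = 1 for csf1b, the gene of a macrophage growth factor, so that neither is shown to differ between the genotypes.

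Genes that act between cytokine receptors and the nucleus were called in both directions, more of them higher than lower. Of 29 genes of SOCS proteins, Stat3 and C/EBP factors, 12 rose (41.4%) and 3 fell in triple mutants, and 10 rose and 1 fell in wild type. Transcript of socs3b (ENSDARG00000026611, chromosome 12, 34258139 to 34277465), a feedback inhibitor of Stat3 signalling, went from 14.4, 16.3 and 15.5 CPM to 93.1, 85.1 and 83.2 CPM. Every injected library lay far above every uninjected library (log2 fold change 2.5004 ± 0.12, adjusted p = 1.04e-14). Its duplicate socs3a went from 3.18, 6.18 and 8.48 CPM to 36.6, 37.2 and 34.8 CPM (log2 fold change 2.61 ± 0.25, adjusted p = 1.27e-06). The factor gene stat3 itself went from 15.1, 14.1 and 17.04 CPM to 51.4, 62.0 and 50.9 CPM (log2 fold change 1.83 ± 0.16, adjusted p = 1.64e-09). In wild type stat3 went from 15.9 ± 2.71 CPM to 31.7 ± 7.99 CPM (log2 fold change 0.99 ± 0.16, adjusted p = 7.48e-05), and the difference of 0.84 ± 0.22 on the log2 scale did not pass (adjusted p = 0.207). Transcript of cebpb, for a C/EBP factor that drives inflammatory and acute phase genes, went from 20.2, 19.2 and 21.5 CPM to 72.0, 64.3 and 78.3 CPM (log2 fold change 1.82 ± 0.12, adjusted p = 2.09e-12). The related gene cebpd went from 55.0, 54.9 and 67.4 CPM to 169, 158 and 169 CPM (log2 fold change 1.48 ± 0.13, adjusted p = 7.78e-09). Of the interferon response list, 4 of 18 tested genes rose (22.2%, against 7.74% of all genes) and 0 fell. Among them irf1b, for an interferon regulatory factor, went from 2.49, 2.79 and 1.95 CPM to 16.8, 12.9 and 17.6 CPM (log2 fold change 2.70 ± 0.25, adjusted p = 3.09e-09), and irf9 from 3.46, 5.01 and 3.83 CPM to 14.5, 16.1 and 15.96 CPM (log2 fold change 1.91 ± 0.20, adjusted p = 5.07e-08).

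**Figure D2:**
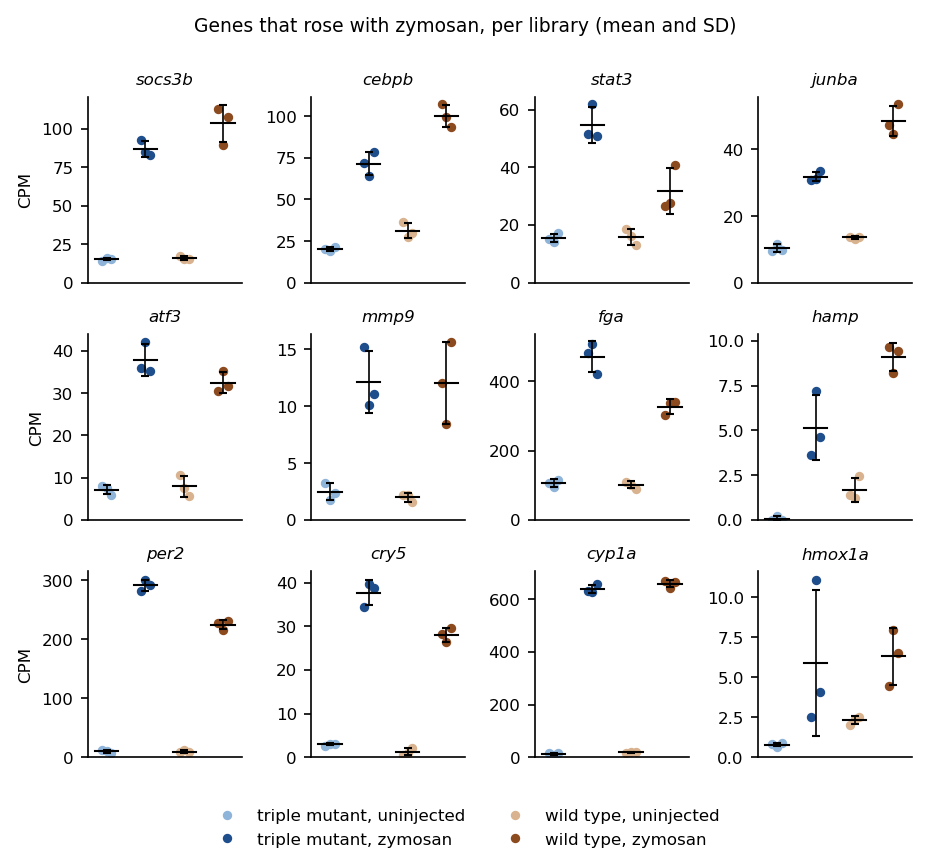
CPM of 12 genes in each library of triple mutants (blue) and wild type (brown), uninjected (light) and after zymosan (dark). Points are single libraries, and bars are the mean and SD of 3. The injected libraries lie above the uninjected of the same genotype in every panel, with the widest spread in hmox1a.

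The AP-1 family joins Jun and Fos proteins into factors that respond to stress and injury within minutes to hours. Of 16 tested AP-1 subunit genes, 8 rose and 0 fell, and of 30 other immediate early genes 6 rose and 2 fell. Transcript of fosl1a went from 1.24, 2.73 and 1.65 CPM to 22.8, 19.2 and 25.8 CPM, the largest change of the family (log2 fold change 3.56 ± 0.27, adjusted p = 3.01e-10). The subunit gene junba went from 9.47, 11.64 and 9.91 CPM to 30.9, 31.1 and 33.6 CPM (log2 fold change 1.62 ± 0.13, adjusted p = 2.28e-10), and atf3, which is also a target of the integrated stress response, from 8.09, 7.47 and 6.01 CPM to 35.9, 42.1 and 35.2 CPM (log2 fold change 2.39 ± 0.18, adjusted p = 4.26e-11). For a pair of AP-1 genes the response was larger in triple mutants than in wild type. Transcript of junbb (ENSDARG00000104773, chromosome 3, 7654655 to 7656059) went from 13.5, 17.2 and 14.9 CPM to 40.4, 39.6 and 50.8 CPM in triple mutants (log2 fold change 1.52 ± 0.14, adjusted p = 6.15e-09), and from 25.7 ± 2.29 CPM to 31.4 ± 4.71 CPM in wild type (log2 fold change 0.29 ± 0.14, adjusted p = 0.215). The difference of the responses was 1.22 ± 0.20, adjusted p = 0.00222. Transcript of fosab (ENSDARG00000031683, chromosome 20, 46552311 to 46554440) went from 7.60, 8.30 and 8.41 CPM to 28.8, 22.9 and 21.0 CPM in triple mutants (log2 fold change 1.58 ± 0.15, adjusted p = 6.01e-09), and from 23.4 ± 2.11 CPM to 32.1 ± 2.04 CPM in wild type (log2 fold change 0.45 ± 0.14, adjusted p = 0.0337). Its difference was 1.13 ± 0.20, adjusted p = 0.0066, and it did not pass without triple-mutant zymosan replicate 1 (adjusted p = 0.0529). For both genes the uninjected mutant libraries lay below the uninjected wild-type libraries, and the means after zymosan were closer to each other for fosab than before it. The factor genes myca and klf6a rose in wild type and were not called in triple mutants. For the difference they gave adjusted p = 0.826 and adjusted p = 0.951. Likewise egr1 was called in wild type alone, where it fell (log2 fold change -0.82 ± 0.22, adjusted p = 0.0213). Its difference gave adjusted p = 0.966.

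Some acute phase genes, which the liver switches on in inflammation, rose in triple mutants. Of 35 tested, 8 rose (22.9%, against 7.74% of all genes) and 0 fell, and in wild type 7 rose and 0 fell. In triple mutants 6 of 20 coagulation and fibrinogen genes rose (30.0%), and 2 of 15 genes for other acute phase proteins (13.3%). Transcript of the fibrinogen gene fga (ENSDARG00000020741, chromosome 1, 10063501 to 10071539) went from 108, 95.2 and 116 CPM to 483, 508 and 422 CPM (log2 fold change 2.14 ± 0.10, adjusted p = 7.07e-15). Its partner fgb went from 64.1, 53.3 and 70.05 CPM to 246, 263 and 211 CPM (log2 fold change 1.94 ± 0.13, adjusted p = 4.26e-11), and fgg from 35.2, 20.3 and 25.4 CPM to 60.5, 67.7 and 45.2 CPM (log2 fold change 1.104 ± 0.23, adjusted p = 0.00474). All 3 fibrinogen chains thus rose with no overlap between the libraries. The largest fold change among genes named by size was that of hamp, which encodes the iron hormone hepcidin. It had 4 counts in the uninjected libraries, all in replicate 2, and stood at 3.64, 7.18 and 4.65 CPM after zymosan (log2 fold change 5.77 ± 0.62, adjusted p = 8.55e-08). In wild type hamp went from 1.69 ± 0.661 CPM to 9.10 ± 0.772 CPM (log2 fold change 2.44 ± 0.42, adjusted p = 0.000159), and the difference did not pass (3.32 ± 0.82, adjusted p = 0.13). The gene cp, for the copper carrier ceruloplasmin, went from 17.3, 15.2 and 24.3 CPM to 33.8, 37.9 and 27.6 CPM in triple mutants (log2 fold change 0.81 ± 0.17, adjusted p = 0.00126). The C-reactive protein gene crp2 stood at 7.12, 6.52 and 9.24 CPM and 9.37, 8.87 and 6.37 CPM (log2 fold change 0.11 ± 0.23, adjusted p = 0.829) and rose in wild type (log2 fold change 0.73 ± 0.24, adjusted p = 0.0484), and the difference did not pass (-0.62 ± 0.33, adjusted p = 0.944).

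Complement genes were called in one direction as well, with 5 of 24 higher (20.8%) and 0 lower in triple mutants and 2 higher in wild type. Over all genes 7.74% rose and 5.24% fell in triple mutants. Transcript of c7b, for a component of the membrane attack complex, went from 0.829, 1.39 and 1.65 CPM to 8.40, 15.03 and 4.37 CPM (log2 fold change 2.84 ± 0.44, adjusted p = 4.28e-05), and cfb, for factor B, from 3.80, 3.90 and 7.21 CPM to 12.3, 17.9 and 11.3 CPM (log2 fold change 1.49 ± 0.28, adjusted p = 0.000829). For the C3 gene c3a.1 the values were 28.3, 23.3 and 39.4 CPM and 81.02, 148 and 57.1 CPM (log2 fold change 1.66 ± 0.34, adjusted p = 0.00757). This call ended when the 6 triple-mutant libraries were fitted alone (adjusted p = 0.0982), and C3 genes have near-identical copies that may share reads. Replicate 2 was the highest of the injected libraries for c7b, cfb and c3a.1. Hepatocyte markers, of which 6 of 31 rose (19.4%) and 0 fell, summed to between 3691 and 4939 CPM without zymosan and between 4749 and 5348 CPM with it. Their part in the result was not tested, and in RNA of many tissues more cells of a type and more RNA per cell cannot be told apart, nor fewer cells and less RNA per cell. Of 22 genes for matrix proteases and their inhibitors, 4 rose (18.2%) and 0 fell. Gelatinase transcript (mmp9), made by neutrophils and injured epithelium, went from 3.25, 1.78 and 2.40 CPM to 15.2, 10.1 and 11.02 CPM (log2 fold change 2.29 ± 0.27, adjusted p = 4.02e-07), and the inhibitor gene timp2b from 6.01, 5.68 and 6.16 CPM to 25.4, 27.1 and 28.0 CPM (log2 fold change 2.17 ± 0.18, adjusted p = 6.89e-10).

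Markers of the cells that take up zymosan went both ways. Of 35 microglia and macrophage genes, 1 rose (2.86%) and 3 fell (8.57%) in triple mutants, against 7.74% and 5.24% of all genes. The share that rose was thus below that of all genes and the share that fell above it, on 1 and 3 genes. The summed level of the list was 498.4 to 570.9 CPM without zymosan and 566.0 to 618.2 CPM with it. Transcript of apoeb, the apolipoprotein E gene abundant in microglia, went from 194, 158 and 181 CPM to 262, 265 and 232 CPM (log2 fold change 0.51 ± 0.10, adjusted p = 0.000335). The plastin gene lcp1, expressed in all leukocytes, went from 8.16, 8.02 and 9.46 CPM to 4.61, 3.52 and 5.44 CPM (log2 fold change -0.92 ± 0.23, adjusted p = 0.00673), a call that ended without zymosan replicate 2 (adjusted p = 0.0558). Of 23 neutrophil genes, 4 rose (17.4%) and 2 fell (8.7%), with a median log2 fold change of 0.585, and 2 rose without zymosan replicate 1, 2 or 3. The summed level of this list was 177.5 to 212.7 CPM without zymosan and 193.6 to 235.3 CPM with it, so the groups overlapped. Both genes that fell encode granule proteins of neutrophils. Transcript of npsn went from 13.3, 12.5 and 11.9 CPM to 3.49, 3.11 and 6.37 CPM (log2 fold change -1.53 ± 0.22, adjusted p = 1.02e-05), and that of mpx, for myeloperoxidase, from 4.01, 2.73 and 2.55 CPM to 0.669, 1.29 and 0.931 CPM (log2 fold change -1.67 ± 0.34, adjusted p = 0.000858). They fell in wild type too, with log2 fold changes of -1.64 ± 0.23 for npsn and -2.73 ± 0.36 for mpx. The difference between the genotypes did not pass for either (adjusted p = 1 and adjusted p = 0.854).

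Lysosomal genes are the subject of the study's question. Of 66 tested lysosomal hydrolases, 9 rose (13.6%, against 7.74% of all genes) and 1 fell in triple mutants, and 2 rose and 2 fell in wild type. Their median log2 fold change was 0.04, against 0.00 over all genes. None of the 66 passed the interaction test. The count of rising hydrolases was 4 without uninjected replicate 2, 5 without zymosan replicate 1 or 3, and 3 against a minimum fold of 1.2. The cathepsin L gene ctsla (ENSDARG00000007836, chromosome 5, 44804791 to 44810920) had the clearest rise, from 161, 131 and 146 CPM to 273, 275 and 264 CPM, with all injected libraries above all uninjected (log2 fold change 0.89 ± 0.10, adjusted p = 1.62e-07). In wild type it went from 227 ± 10.7 CPM to 309 ± 36.4 CPM (log2 fold change 0.45 ± 0.10, adjusted p = 0.00271), and the difference was 0.44 ± 0.14, adjusted p = 0.441. The lysosomal phospholipase gene pla2g15 went from 38.2, 35.2 and 36.9 CPM to 51.6, 50.4 and 55.3 CPM (log2 fold change 0.51 ± 0.10, adjusted p = 0.000883). The carboxypeptidase gene ctsa, whose product protects other hydrolases, went from 13.6, 12.3 and 12.5 CPM to 19.03, 18.1 and 17.8 CPM (log2 fold change 0.51 ± 0.13, adjusted p = 0.00944). The heparan sulfate hydrolase gene naglu went from 3.25, 3.06 and 3.53 CPM to 6.69, 8.60 and 7.09 CPM (log2 fold change 1.19 ± 0.25, adjusted p = 0.00124). Against this, hexb, for a subunit of hexosaminidase and a microglial marker, fell from 67.0, 55.8 and 62.8 CPM to 31.8, 33.4 and 35.4 CPM (log2 fold change -0.88 ± 0.11, adjusted p = 6.42e-07). It also fell in wild type (log2 fold change -0.43 ± 0.10, adjusted p = 0.00663).

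The share of lysosomal membrane genes that were called was no larger than that of all genes. Of 49 genes for lysosomal membrane proteins and transport, 3 rose (6.12%) and 1 fell (2.04%) in triple mutants, against 7.74% and 5.24% of all genes. In wild type 4 rose and 3 fell. Transcript of lamp1, a major glycoprotein of that membrane, went from 52.0, 49.2 and 40.1 CPM to 68.8, 70.7 and 63.5 CPM (log2 fold change 0.52 ± 0.11, adjusted p = 0.00113). The transporter gene spns1, for a carrier of lysophospholipids out of the lysosome, went from 9.47, 9.14 and 10.7 CPM to 19.8, 15.98 and 17.5 CPM (log2 fold change 0.87 ± 0.15, adjusted p = 0.000141), and the sorting receptor gene sort1b from 37.0, 40.8 and 34.3 CPM to 25.9, 23.6 and 23.5 CPM (log2 fold change -0.62 ± 0.12, adjusted p = 0.000581). The cholesterol exporter gene npc1 stood at 61.4, 55.2 and 54.3 CPM and 70.5, 58.0 and 64.4 CPM (log2 fold change 0.17 ± 0.10, adjusted p = 0.311) and was called in wild type (log2 fold change 0.35 ± 0.10, adjusted p = 0.0274). Of 24 genes for the v-ATPase, the proton pump that acidifies lysosomes, 1 rose (4.17%) and 0 fell. That gene, atp6v1g1, went from 33.0, 24.3 and 37.09 CPM to 52.3, 37.7 and 42.9 CPM, with the groups close but not overlapping (log2 fold change 0.50 ± 0.13, adjusted p = 0.00839), and its call ended without uninjected replicate 2 (adjusted p = 0.0869) or zymosan replicate 1 (adjusted p = 0.0916). The subunit gene atp6v1c1b was called in wild type and not in triple mutants, where it stood at 23.5, 12.04 and 16.1 CPM and 10.6, 11.2 and 15.03 CPM, and its interaction did not pass (-1.63 ± 0.36, adjusted p = 0.0901).

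Some autophagy genes rose in both genotypes, while most did not pass the test. Of 58 tested, 10 rose (17.2%) and 0 fell in triple mutants and 8 rose and 0 fell in wild type, with a median log2 fold change of 0.13 in triple mutants and 0.07 in wild type. None passed the interaction test. Transcript of sqstm1, for the cargo receptor p62, went from 18.5, 15.1 and 17.4 CPM to 37.2, 38.9 and 48.2 CPM (log2 fold change 1.29 ± 0.20, adjusted p = 9.75e-05). The kinase gene ulk1a, for the complex that starts autophagy, went from 7.40, 9.42 and 6.83 CPM to 18.7, 16.1 and 11.81 CPM (log2 fold change 0.97 ± 0.19, adjusted p = 0.000745), and rb1cc1, for its scaffold, from 49.2, 52.9 and 47.8 CPM to 82.4, 76.6 and 80.7 CPM (log2 fold change 0.68 ± 0.10, adjusted p = 2.07e-05). The membrane tag gene map1lc3a went from 26.1, 25.5 and 25.2 CPM to 45.5, 41.7 and 39.3 CPM (log2 fold change 0.72 ± 0.13, adjusted p = 0.000138). Upstream of these, 6 of 39 genes of the Rag GTPase, folliculin and mTORC1 pathway rose (15.4%) and 0 fell in triple mutants. Over all genes 7.74% rose there. In wild type 4 of the 39 rose and 1 fell. Transcript of sesn1, a leucine-sensitive inhibitor of mTORC1 signalling and a p53 target, went from 77.3, 74.8 and 63.1 CPM to 167, 143 and 165 CPM (log2 fold change 1.14 ± 0.10, adjusted p = 6.9e-10). The translation inhibitor gene eif4ebp3l went from 35.2, 32.6 and 36.6 CPM to 80.1, 87.2 and 79.8 CPM (log2 fold change 1.24 ± 0.11, adjusted p = 1.01e-09), and fnip1, for a folliculin partner, from 33.7, 37.7 and 33.9 CPM to 59.5, 53.6 and 50.5 CPM (log2 fold change 0.63 ± 0.12, adjusted p = 0.000333). For deptor, which encodes an mTOR inhibitor, the values were 26.3, 23.1 and 26.2 CPM and 44.2, 49.2 and 40.4 CPM (log2 fold change 0.83 ± 0.13, adjusted p = 2.29e-05).

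**Figure D3:**
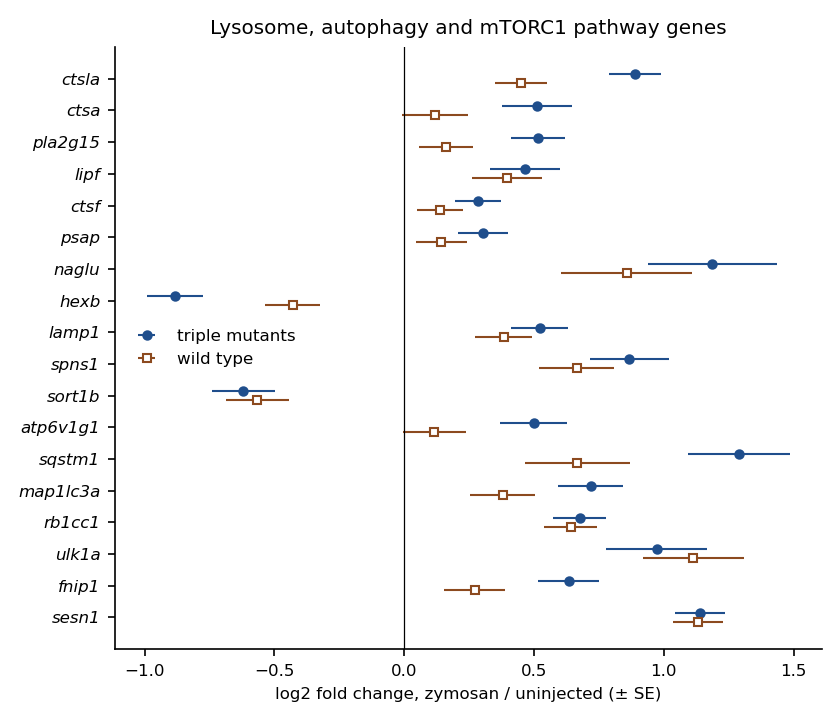
Log2 fold change with zymosan (± SE) of 18 lysosome, autophagy and mTORC1 pathway genes in triple mutants (filled circles) and wild type (open squares). The genes were chosen from those called in triple mutants, and hexb and sort1b are those below 0. None of the 18 passed the test of a difference between the genotypes.

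Genes of the circadian clock rose in triple mutants in a larger share than those of the inflammatory list. Of 39 tested clock genes, 24 rose (61.5%, against 7.74% of all genes) and 0 fell, and in wild type 21 rose and 0 fell. The clock of zebrafish runs in most tissues and is set directly by light. Transcript of per2 (ENSDARG00000034503, chromosome 2, 48309600 to 48375342), a clock gene that light induces in zebrafish, went from 12.03, 10.1 and 8.03 CPM to 283, 300.4 and 292 CPM. The uninjected libraries were thus uniformly low and the injected uniformly high (log2 fold change 4.85 ± 0.60, adjusted p = 0.00029). The repressor genes cry2 and nr1d1 went from 11.61, 10.8 and 9.91 CPM to 59.5, 64.0 and 62.1 CPM (log2 fold change 2.52 ± 0.16, adjusted p = 1.39e-12) and from 9.95, 14.5 and 13.3 CPM to 67.9, 63.0 and 52.3 CPM (log2 fold change 2.27 ± 0.15, adjusted p = 3.3e-12). The output factor gene nfil3-6 went from 2.97, 3.57 and 2.93 CPM to 45.7, 48.3 and 48.5 CPM (log2 fold change 3.90 ± 0.19, adjusted p = 4.58e-15). The repressor gene per1b went from 26.2, 32.3 and 30.4 CPM to 113, 102 and 91.2 CPM (log2 fold change 1.78 ± 0.11, adjusted p = 1.39e-12), and bhlhe40 from 71.5, 76.6 and 73.6 CPM to 159, 160.1 and 157 CPM (log2 fold change 1.101 ± 0.10, adjusted p = 1.77e-09). A list of 21 light-induced and DNA repair genes, which shares per2, cry5 and tefa with the clock list, had 12 members higher (57.1%) and 1 lower. The lower count was 0 without uninjected replicate 2 or 3 or zymosan replicate 1 or 3. In that list the DNA photolyase gene cry5 went from 2.70, 3.12 and 3.08 CPM to 34.4, 39.7 and 38.9 CPM (log2 fold change 3.66 ± 0.39, adjusted p = 2.88e-05), cry-dash from 7.12, 7.19 and 9.91 CPM to 91.9, 100.3 and 101 CPM (log2 fold change 3.60 ± 0.31, adjusted p = 8.56e-06) and lonrf1l from 6.08, 6.41 and 7.13 CPM to 204, 214 and 206 CPM (log2 fold change 4.99 ± 0.29, adjusted p = 1.92e-07). The damage sensor gene ddb2 went from 0.829, 2.06 and 1.201 CPM to 18.95, 12.999 and 21.3 CPM (log2 fold change 3.66 ± 0.66, adjusted p = 0.00349).

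Targets of the aryl hydrocarbon receptor, a sensor of planar aromatic compounds, rose to a like degree. Of 13 tested, 8 rose (61.5%) and 0 fell in both genotypes. Over all genes 7.74% rose in triple mutants and 6.23% in wild type. Transcript of cyp1a (ENSDARG00000098315, chromosome 18, 5588068 to 5598958), the classical target, went from 15.1, 9.97 and 15.6 CPM to 629, 628 and 657 CPM (log2 fold change 5.57 ± 0.81, adjusted p = 0.000959). In wild type it went from 19.4 ± 2.09 CPM to 658 ± 13.5 CPM (log2 fold change 5.09 ± 0.79, adjusted p = 0.00197). The related cyp1c1 went from 19.4, 13.5 and 15.5 CPM to 132, 109.9 and 118 CPM (log2 fold change 2.90 ± 0.47, adjusted p = 0.00206), and the receptor gene ahr2 from 51.6, 47.8 and 55.3 CPM to 106, 102 and 109.7 CPM (log2 fold change 1.04 ± 0.13, adjusted p = 3.67e-06). Standard errors of per2 and cyp1a are large beside the spread of the 6 libraries because the model shares its estimate of spread with the 3 uninjected rraga mutant libraries. These stood at 97.4, 99.5 and 14.3 CPM for per2 and at 814, 914 and 64.2 CPM for cyp1a. For both genes all 3 lay above every uninjected triple-mutant library, 2 of them far above. Per the labels' protocols, the rraga mutants, which received no injection, were scored under a confocal microscope. With the 6 triple-mutant libraries alone, per2 gave adjusted p = 5.01e-16 and cyp1a adjusted p = 3.38e-15, and the clock, light and aryl hydrocarbon receptor lists again had 24, 12 and 8 members higher. The part of light exposure, imaging or hour of collection in these changes was not tested.

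**Figure D4:**
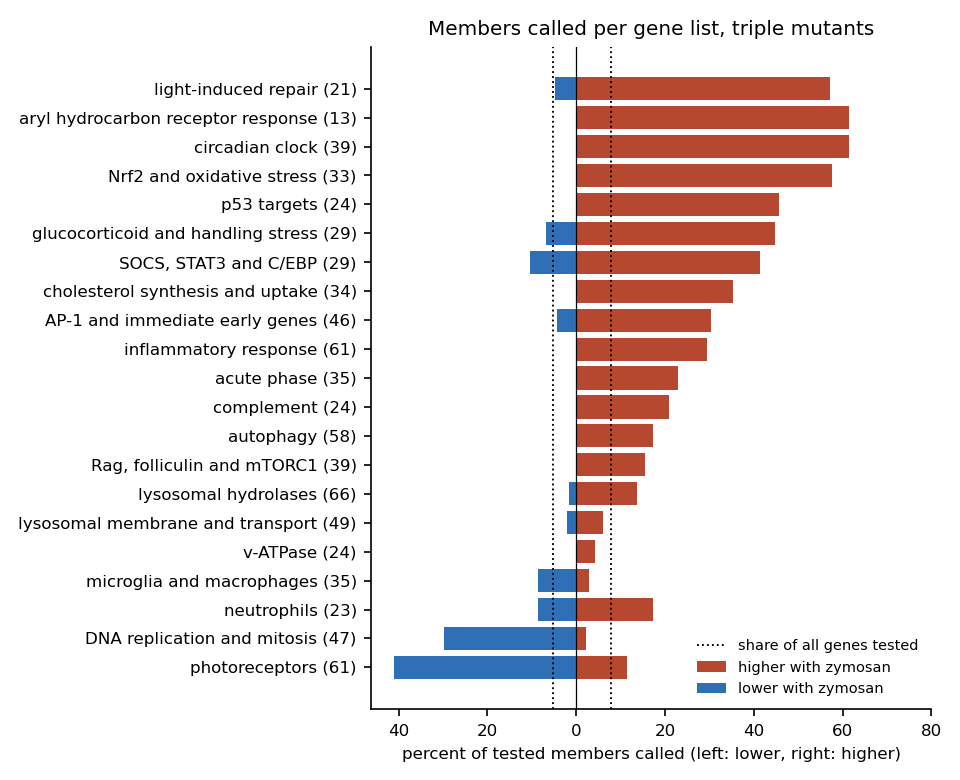
Share of tested members of 21 gene lists that were called higher (red, to the right) or lower (blue, to the left) with zymosan in triple mutants. The number of tested members stands in brackets, and dotted lines mark the share over all genes, 7.74% higher and 5.24% lower. Bars for the light, aryl hydrocarbon receptor, clock and Nrf2 lists reach past 55% and that of photoreceptors reaches 41.0% on the lower side.

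Members of several stress gene lists, which share some genes with each other and with other lists, rose as well. Over all genes 7.74% rose and 5.24% fell in triple mutants. Of 29 genes tied to glucocorticoids and handling stress, 13 rose (44.8%) and 2 fell (6.9%) in triple mutants. In wild type 12 of them rose and 2 fell. Transcript of pck1, which encodes the key enzyme of gluconeogenesis, went from 27.2, 24.2 and 24.4 CPM to 117, 118 and 172 CPM (log2 fold change 2.42 ± 0.24, adjusted p = 2.33e-05). The kinase gene sgk1 went from 19.4, 15.7 and 20.4 CPM to 68.4, 57.7 and 70.6 CPM (log2 fold change 1.83 ± 0.14, adjusted p = 8.98e-11). The glucocorticoid target tsc22d3 was low in all 6 mutant libraries, at 0.622, 0.501 and 0.676 CPM and 1.11, 0.880 and 1.07 CPM (log2 fold change 0.78 ± 0.40, adjusted p = 0.228), while it went from 20.5 ± 4.36 CPM to 37.5 ± 8.30 CPM in wild type (log2 fold change 0.87 ± 0.18, adjusted p = 0.00143), and the responses were not shown to differ (-0.09 ± 0.49, adjusted p = 1). Of 33 targets of Nrf2, the factor of the antioxidant response, 19 rose (57.6%) and 0 fell, and 15 rose in wild type. The peroxiredoxin gene prdx1 went from 57.9, 51.8 and 50.8 CPM to 145, 147 and 144 CPM (log2 fold change 1.44 ± 0.09, adjusted p = 2.2e-12), and gclc, for the enzyme that starts glutathione synthesis, from 33.7, 29.1 and 35.8 CPM to 57.5, 60.3 and 52.5 CPM (log2 fold change 0.79 ± 0.11, adjusted p = 3.78e-06). Of 24 p53 targets, 11 rose (45.8%) and 0 fell. Called p53 targets that stand in other lists too include sesn1 (mTORC1 pathway), btg2 (immediate early), gadd45ba (inflammatory) and foxo3b (glucocorticoid). The counts of these lists are therefore not independent. Transcript of bbc3, which encodes the cell death protein Puma, went from 4.63, 6.74 and 5.41 CPM to 15.2, 13.7 and 13.7 CPM (log2 fold change 1.34 ± 0.21, adjusted p = 2.63e-05), and btg2 from 33.0, 38.9 and 42.3 CPM to 73.4, 78.0 and 81.3 CPM (log2 fold change 1.03 ± 0.11, adjusted p = 4.74e-08).

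Of 31 genes of the integrated stress response, 9 rose (29.0%) and 0 fell, among them trib3 (log2 fold change 0.84 ± 0.13, adjusted p = 4.36e-05) and ppp1r15a (log2 fold change 0.64 ± 0.11, adjusted p = 0.0001). Chaperone genes went both ways, with 11 of 48 higher (22.9%) and 6 lower (12.5%), against 7.74% and 5.24% of all genes. The collagen chaperone gene serpinh1b (ENSDARG00000019949, chromosome 15, 29382454 to 29388012) was among the largest falls of all genes, from 31.7, 34.4 and 35.5 CPM to 1.49, 1.90 and 2.08 CPM (log2 fold change -4.21 ± 0.41, adjusted p = 1.47e-05). Its duplicate serpinh1a went from 35.8, 26.4 and 36.0 CPM to 16.9, 12.7 and 14.6 CPM (log2 fold change -1.15 ± 0.21, adjusted p = 0.000787). Both also fell in wild type, with a log2 fold change of -3.05 ± 0.40 for serpinh1b. Collagen genes themselves were little changed, with 3 of 57 higher (5.26%) and 1 lower. The mitochondrial chaperone gene hspd1 went from 158, 137 and 173 CPM to 292, 286 and 326 CPM (log2 fold change 0.95 ± 0.10, adjusted p = 1.83e-08), and xbp1, the factor of the unfolded protein response, from 159, 136 and 154 CPM to 266, 252 and 282 CPM (log2 fold change 0.83 ± 0.10, adjusted p = 4.23e-07).

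Metabolic genes changed in groups. Of 34 genes for cholesterol synthesis and uptake, 12 rose (35.3%) and 0 fell in triple mutants, and 11 rose and 0 fell in wild type. The synthesis gene msmo1 went from 3.11, 1.17 and 2.25 CPM to 11.7, 10.2 and 12.5 CPM (log2 fold change 2.41 ± 0.28, adjusted p = 2.97e-07), and ldlra, for the low density lipoprotein receptor, from 13.3, 16.9 and 13.1 CPM to 34.6, 40.1 and 33.9 CPM (log2 fold change 1.32 ± 0.17, adjusted p = 3.21e-06). The cholesterol exporter gene abca1a rose too, from 99.9, 114 and 93.9 CPM to 225, 226 and 223 CPM (log2 fold change 1.13 ± 0.12, adjusted p = 7.17e-08). Of 48 genes of fatty acid oxidation and fasting metabolism, 15 rose (31.2%) and 2 fell. The rising genes pck1, pdk2a and g6pca.1 of this list are also counted in the glucocorticoid list. Transcript of pdk2b, for a kinase that shuts pyruvate out of the citric acid cycle, went from 15.8, 13.7 and 11.64 CPM to 186, 169 and 187 CPM (log2 fold change 3.72 ± 0.29, adjusted p = 5.06e-06). The lipase gene pnpla2, which releases stored fat, went from 4.22, 3.90 and 2.93 CPM to 10.2, 8.73 and 10.7 CPM (log2 fold change 1.41 ± 0.23, adjusted p = 6.84e-05). In the list of hypoxia and glycolysis genes, 11 of 50 rose (22.0%) and 3 fell (6.0%), against 7.74% and 5.24% of all genes. Among the 12 largest rises named by size was igfbp1b, for an insulin-like growth factor binding protein, from 1.73, 1.003 and 1.05 CPM to 14.4, 19.2 and 15.4 CPM (log2 fold change 3.70 ± 0.30, adjusted p = 2.95e-10). Its duplicate igfbp1a rose less, from 12.8, 9.92 and 11.79 CPM to 76.9, 87.0 and 82.2 CPM (log2 fold change 2.84 ± 0.16, adjusted p = 1.7e-12). The hypoxia target ndrg1a went the other way, from 101, 107 and 112 CPM to 48.7, 49.6 and 51.1 CPM (log2 fold change -1.10 ± 0.09, adjusted p = 2.28e-10). Of 44 amino acid transporters, 12 rose (27.3%) and 2 fell (4.55%), led by slc43a2a, which went from 25.2, 32.4 and 30.7 CPM to 119, 112 and 109 CPM (log2 fold change 1.94 ± 0.12, adjusted p = 1.39e-12). The vitamin D hydroxylase gene cyp24a1, outside these lists, went from 2.42, 3.06 and 1.502 CPM to 38.7, 39.3 and 44.0 CPM (log2 fold change 4.09 ± 0.20, adjusted p = 4.58e-15).

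Photoreceptor genes went both ways, with more falling than rising, and 4 cone opsin genes fell further in triple mutants than in wild type. Of 61 tested, 25 fell (41.0%, against 5.24% of all genes) and 7 rose in triple mutants, and 15 fell and 11 rose in wild type. The median log2 fold change of the list was -0.42 in triple mutants and -0.04 in wild type. Cones detect light with opsins of 4 spectral classes in zebrafish. Transcript of the ultraviolet opsin gene opn1sw1 (ENSDARG00000045677, chromosome 4, 13577665 to 13580348) went from 4971, 3698 and 4364 CPM to 555, 547 and 595 CPM, with every injected library far below every uninjected library (log2 fold change -2.94 ± 0.16, adjusted p = 8.15e-14). In wild type it stood at 5255, 5482.1 and 6809 CPM without and at 3344, 3338 and 2089 CPM with zymosan (log2 fold change -1.0005 ± 0.15, adjusted p = 2.8e-05). The fall was larger in triple mutants (-1.94 ± 0.21, adjusted p = 1.54e-05). The blue opsin gene opn1sw2 (ENSDARG00000017274, chromosome 11, 25459697 to 25475403) went from 226, 184 and 204 CPM to 27.0, 28.9 and 23.3 CPM (log2 fold change -2.95 ± 0.18, adjusted p = 2.86e-09), and from 279 ± 34.6 CPM to 103 ± 21.1 CPM in wild type. Its difference also passed (-1.52 ± 0.23, adjusted p = 0.00678). The green opsin gene opn1mw1 went from 2308, 1889 and 2089.7 CPM to 400.1, 376 and 429 CPM (log2 fold change -2.38 ± 0.17, adjusted p = 1.5e-10), and from 2902 ± 305 CPM to 1532 ± 381 CPM in wild type. The difference was -1.46 ± 0.22, adjusted p = 0.00222. The red opsin gene opn1lw2 went from 1038, 839.8 and 925 CPM to 228, 202 and 236 CPM in triple mutants (log2 fold change -2.07 ± 0.11, adjusted p = 2.31e-14), and from 368 ± 29.0 CPM to 211 ± 19.1 CPM in wild type. Its level without zymosan was thus higher in triple mutants than in wild type, whereas after zymosan the means of the genotypes were close. The difference of the responses was -1.27 ± 0.15, adjusted p = 2.12e-05. Both opn1sw2 and opn1lw2 (chromosome 11, 25481046 to 25483206) lie close to the targeted gene tfe3b, which spans 25504215 to 25519837. The part of the mutated locus in the values of these 2 opsin genes was not tested.

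Downstream of the opsins, several genes of the cone signalling cascade fell as well, while others rose. Transcript of gnat2, the alpha subunit of cone transducin, went from 1138, 973 and 994 CPM to 338, 314 and 343 CPM (log2 fold change -1.64 ± 0.13, adjusted p = 8.98e-11; -0.98 ± 0.17, adjusted p = 0.00589 for the difference). Its beta subunit gene gnb3b went from 1092, 940.2 and 996 CPM to 340.4, 324 and 342 CPM (log2 fold change -1.59 ± 0.12, adjusted p = 2.92e-11; -0.98 ± 0.16, adjusted p = 0.00222). The disc rim gene prph2b went from 107, 105 and 103 CPM to 51.8, 51.3 and 48.8 CPM (log2 fold change -1.05 ± 0.09, adjusted p = 1.46e-09; -0.68 ± 0.13, adjusted p = 0.0123). For prph2b the difference did not pass without triple-mutant zymosan replicate 3 (adjusted p = 0.0564), wild-type uninjected replicate 1 (0.0599) or 2 (0.0612), or wild-type zymosan replicate 2 (0.0669). The opsin kinase gene grk1b went from 92.2, 83.1 and 88.4 CPM to 9.81, 12.2 and 11.9 CPM (log2 fold change -2.96 ± 0.20, adjusted p = 3.12e-08), and from 97.6 ± 7.78 CPM to 25.7 ± 4.22 CPM in wild type, and here the difference did not pass (-1.03 ± 0.27, adjusted p = 0.29). The retinol dehydrogenase gene rdh8b, for an enzyme of the visual cycle, went from 24.0, 20.3 and 23.8 CPM to 3.57, 4.54 and 3.87 CPM (log2 fold change -2.50 ± 0.19, adjusted p = 9.82e-11; -0.93 ± 0.26, adjusted p = 0.288 for the difference). The retinal transcription factor gene rx2 went from 12.2, 13.2 and 9.31 CPM to 1.78, 1.35 and 1.07 CPM (log2 fold change -3.04 ± 0.29, adjusted p = 8.72e-09; -0.73 ± 0.41, adjusted p = 0.948). An arrestin gene, sagb, stood at 62.0, 52.7 and 56.6 CPM and 65.1, 73.7 and 61.8 CPM in triple mutants (log2 fold change 0.23 ± 0.10, adjusted p = 0.148) and rose in wild type from 60.2 ± 4.26 CPM to 117 ± 4.36 CPM (log2 fold change 0.96 ± 0.10, adjusted p = 7.88e-08). Its difference was -0.73 ± 0.14, adjusted p = 0.0162, and it did not pass without triple-mutant uninjected replicate 1 (adjusted p = 0.0898), triple-mutant zymosan replicate 1 (0.0702) or 3 (0.0872), wild-type uninjected replicate 1 (0.0876) or 3 (0.0579), or wild-type zymosan replicate 1 (0.0589).

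The 7 members that rose in triple mutants were pde6ha, arr3a, rbp4l, rcvrn3, guca1c, cnga3b and arr3b, chosen after their values were seen. The gene pde6ha, for an inhibitory subunit of the cone phosphodiesterase, went from 16.6, 9.42 and 13.9 CPM to 135, 141 and 149.6 CPM (log2 fold change 3.43 ± 0.35, adjusted p = 5.93e-05), with no overlap. The cone arrestin gene arr3a went from 104, 86.8 and 118 CPM to 692, 806 and 781 CPM (log2 fold change 2.89 ± 0.47, adjusted p = 0.00205), and arr3b from 83.7, 77.4 and 75.4 CPM to 299, 339.9 and 282 CPM (log2 fold change 1.96 ± 0.55, adjusted p = 0.0418). The recoverin gene rcvrn3 went from 232, 228 and 219 CPM to 550.1, 501 and 574 CPM (log2 fold change 1.26 ± 0.20, adjusted p = 0.000484). All 7 rose in wild type too, and none of the 7 passed the interaction test (adjusted p = 0.945 for pde6ha and adjusted p = 1 for arr3a). In the uninjected rraga libraries pde6ha stood at 105, 108 and 42.4 CPM and arr3a at 506, 521 and 106 CPM. A further green opsin gene, opn1mw2, stood at 11.2, 9.25 and 10.96 CPM and 8.47, 6.77 and 6.87 CPM and did not pass (log2 fold change -0.50 ± 0.22, adjusted p = 0.138).

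In all, 10 of the 30 genes with a difference between the genotypes were on the photoreceptor list, all 10 with a lower value in triple mutants. The summed level of the 61 genes was 12900 to 15970 CPM without and 6446 to 7018 CPM with zymosan in triple mutants. In wild type it was 17400 to 21370 CPM without zymosan and 11340, 16140 or 16270 CPM with it, the lowest in replicate 3. Without that library the differences were at least as large for the 4 opsin genes, at -2.13 for opn1sw1, -1.68 for opn1sw2, -1.65 for opn1mw1 and -1.34 for opn1lw2. Green opsin genes, and red ones, lie side by side in similar copies, so that the split of reads between copies is uncertain for opn1mw1 and opn1lw2. Of 60 lens genes, 7 rose (11.7%) and 1 fell (1.67%), against 7.74% and 5.24% of all genes. Their summed level in triple mutants was 15590 to 17820 CPM without zymosan and 19410 to 21990 CPM with it, so it did not fall. In wild type it was 22380 to 26400 CPM and 22340 to 30140 CPM. Of 39 genes of neurons and synapses, 1 rose (2.56%) and 3 fell (7.69%).

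**Figure D5:**
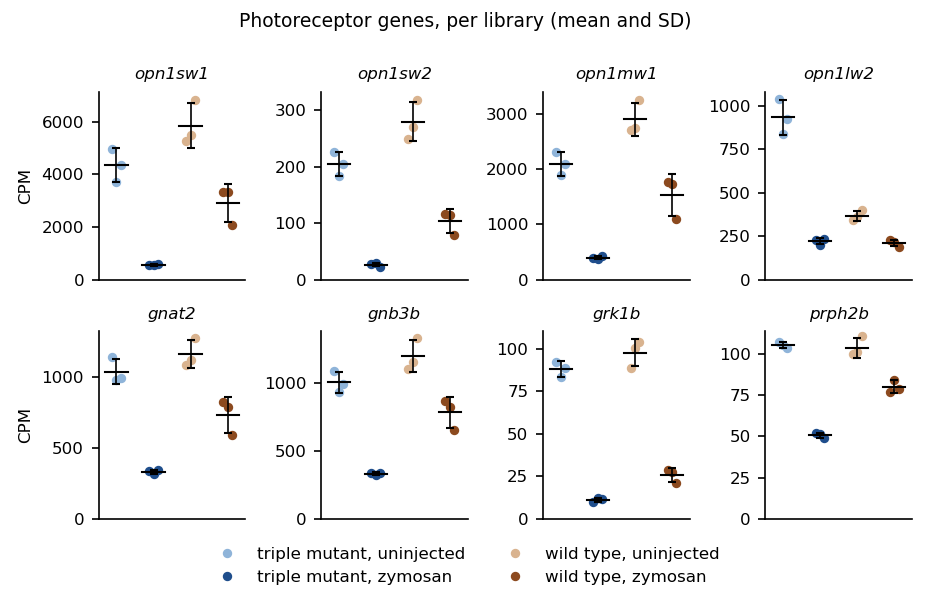
CPM of 8 photoreceptor genes in each library of triple mutants (blue) and wild type (brown), uninjected (light) and after zymosan (dark). Points are single libraries, and bars are the mean and SD of 3. The genes shown are among the 25 that fell in triple mutants, and in every panel the injected triple mutants lie lowest or level with the injected wild type.

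Outside the photoreceptor list, the opsin gene opn6b (ENSDARG00000098051, chromosome 17, 28760586 to 28770800) had the largest negative difference. It went from 10.02, 10.1 and 11.3 CPM to 0.743, 0.339 and 0.429 CPM in triple mutants (log2 fold change -4.36 ± 0.31, adjusted p = 2.54e-11), and from 16.3 ± 0.412 CPM to 4.91 ± 1.02 CPM in wild type (-2.64 ± 0.40, adjusted p = 0.00171 for the difference). The prion protein gene prnpa went from 34.2, 27.3 and 23.6 CPM to 8.10, 9.005 and 8.59 CPM in triple mutants (log2 fold change -1.73 ± 0.17, adjusted p = 1.19e-08). It stood at 10.8, 10.5 and 14.98 CPM and 11.4, 11.4 and 11.7 CPM in wild type, so that its level without zymosan differed between the genotypes and its level after zymosan did not by much (-1.67 ± 0.24, adjusted p = 0.000764). The cytochrome P450 gene cyp2n13 fell in triple mutants, from 12.5, 10.9 and 17.2 CPM to 9.44, 8.33 and 6.73 CPM (log2 fold change -0.72 ± 0.18, adjusted p = 0.00683), and rose in wild type from 9.88 ± 0.843 CPM to 17.9 ± 2.53 CPM (log2 fold change 0.85 ± 0.18, adjusted p = 0.00167; -1.58 ± 0.26, adjusted p = 0.00222). Its fall in triple mutants did not pass without uninjected replicate 3 (adjusted p = 0.0877) or zymosan replicate 3 (0.061). The prostaglandin D synthase gene ptgdsb.1 (ENSDARG00000027088, chromosome 24, 17027310 to 17029374) rose further in triple mutants, from 94.6, 77.1 and 90.6 CPM to 724, 763 and 727 CPM (log2 fold change 3.08 ± 0.12, adjusted p = 1.02e-16), than in wild type, from 53.2 ± 1.82 CPM to 250.0 ± 30.5 CPM (0.84 ± 0.16, adjusted p = 0.0151). Without wild-type uninjected replicate 1 (adjusted p = 0.0599) or 3 (0.0528), or wild-type zymosan replicate 1 (0.0561) or 2 (0.0863), this difference did not pass. Transcript of selenoj, for a selenoprotein known from fish, went from 14.3, 13.3 and 15.5 CPM to 65.8, 60.8 and 61.2 CPM in triple mutants (log2 fold change 2.13 ± 0.16, adjusted p = 5.8e-11) and from 16.2 ± 3.07 CPM to 30.3 ± 0.744 CPM in wild type (1.23 ± 0.22, adjusted p = 0.00656).

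A part of the genes of DNA replication and mitosis fell. Of 47 tested, 14 fell (29.8%, against 5.24% of all genes) and 1 rose in triple mutants, with a median log2 fold change of -0.37. In wild type 13 fell and 1 rose. In triple mutants the count of falling members was 9 without zymosan replicate 3, and 8 against a minimum fold of 1.2. The helicase subunit gene mcm2 went from 58.1, 63.4 and 64.2 CPM to 34.1, 35.14 and 37.6 CPM (log2 fold change -0.80 ± 0.10, adjusted p = 9.73e-07), and the proliferation marker mki67 from 147, 166 and 166 CPM to 102, 102 and 93.1 CPM (log2 fold change -0.69 ± 0.10, adjusted p = 1.59e-05). The exception was rrm2, for a subunit of the enzyme that makes deoxyribonucleotides, which rose from 65.5, 63.4 and 75.3 CPM to 111, 97.2 and 97.9 CPM (log2 fold change 0.58 ± 0.11, adjusted p = 0.000262). Among called genes with an established symbol, at least 2 CPM and no overlap, cbx7a, for a Polycomb protein, had the smallest adjusted p. It went from 14.4, 15.4 and 14.4 CPM to 146, 147 and 159.6 CPM (log2 fold change 3.35 ± 0.12, adjusted p = 1.07e-17). Its response in wild type was 3.26 ± 0.12 on the log2 scale. Gut genes rose in part, with 10 of 44 enterocyte genes higher (22.7%, against 7.74% of all genes) and 0 lower. An example was the glucose carrier gene slc5a1, from 8.64, 6.24 and 7.58 CPM to 22.5, 27.0 and 22.9 CPM (log2 fold change 1.69 ± 0.18, adjusted p = 7.03e-08). Pigment cell genes fell in 4 of 31 (12.9%, against 5.24% of all genes) and rose in 1 (3.23%). The gene oca2, for a melanosome protein, went from 9.05, 5.96 and 4.96 CPM to 3.196, 2.03 and 3.29 CPM (log2 fold change -1.23 ± 0.27, adjusted p = 0.0019).

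Groups with few changed members were also measured. Of 85 cytosolic ribosomal protein genes, 1 rose (1.18%) and 0 fell, and of 13 mitochondrially encoded genes 0 were called. Of 94 nuclear genes of the respiratory chain 4 rose, of 39 proteasome subunits 1 and of 56 skeletal muscle genes 1, with 0 lower in each. The succinate dehydrogenase gene sdha was an exception among respiratory genes, from 175, 161 and 196 CPM to 379.6, 369.7 and 410.1 CPM (log2 fold change 1.12 ± 0.11, adjusted p = 7.78e-09). These shares lie below the 7.74% of all genes that rose.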

How the data were processed

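RNA-seq counts per gene from 15 libraries of zebrafish larvae, 3 in each of 5 groups, were taken from 3 deposited tables. Per the submitters' processing notes, GRCz11, HISAT2 2.0.5, StringTie 1.3.3b and featureCounts 1.5.0 were used. The sources used here do not say how strand was treated. The tables also hold size-factor-scaled signal and FPKM values that the authors deposited; neither entered a result. Raw read counts, which the authors deposited without normalization, were joined by gene identifier over 24609 genes, with a gene missing from a table set to 0. Wild-type uninjected libraries occur in 2 tables, with 67893 shared values identical and 0 different. Library totals were 12314113 to 17566540 counts.

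Genes were filtered with filterByExpr, which left 19006, and scaled with TMM. A quasi-likelihood model (edgeR 4.0.16, R 4.3.3) was fitted to the 15 libraries with 1 coefficient for each group, and 3 contrasts were tested: zymosan against uninjected in triple mutants, the same in wild type, and their difference. Adjustment was by Benjamini-Hochberg over all 19006 genes, with a threshold of 0.05. Alternatives were RLE scaling, no filter, genes in all 3 tables, a replicate block, fewer groups in the fit, another library size, a minimum fold of 1.2, DESeq2 1.42.0 and leaving out each library.

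Members and gene lists were chosen with earlier results of these data known. Genes named are the 3 targeted genes, the 12 largest rises and falls and the 5 smallest adjusted p in each direction among called genes with an established symbol, at least 2 CPM and no overlap, up to 8 called members of each of 47 lists plus up to 3 called elsewhere, and the 6 largest interactions in each direction. Samples are called biological replicates, but nothing says that they came from separate clutches, so the p-values reflect only how these samples vary, which may be technical. The counting interval of il1b (95%, exact) covers counting error only.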

Additional observations from a re-analysis of the deposited data

Results flagged for a closer look

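The response to zymosan differed between triple mutants and wild type in 30 genes by the interaction term of edgeR's quasi-likelihood model with Benjamini-Hochberg adjustment. The hour of collection of the groups is not given, and its part and that of imaging in these differences was not tested. Of these, 19 are named. Values are the log2 response of triple mutants minus that of wild type, each from 3 against 3 libraries per genotype. In photoreceptor genes the difference was -1.94 for opn1sw1, -1.52 for opn1sw2, -1.46 for opn1mw1, -1.27 for opn1lw2, -0.98 for gnat2, -0.98 for gnb3b, -0.73 for sagb and -0.68 for prph2b. Other negative differences were -2.64 for opn6b, -1.67 for prnpa, -1.58 for cyp2n13 and -1.57 for fam46ab. Positive differences were 2.08 for chchd10, 1.23 for selenoj, 1.22 for junbb, 1.13 for fosab, 1.13 for hebp2, 1.06 for crtac1a and 0.84 for ptgdsb.1. In chchd10 the wild-type response was -1.72 ± 0.31 and the triple-mutant response did not pass (log2 fold change 0.36 ± 0.30, adjusted p = 0.507). Its level was low, at 3.76 ± 0.652 CPM without and 4.82 ± 1.44 CPM with zymosan in triple mutants. In wild type it was 8.30 ± 3.78 CPM without zymosan, a wide spread, and 2.51 ± 0.215 CPM with it.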

How the results depend on the processing

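No named gene that was called here or under an alternative changed direction between them. Sign changes of genes called in neither were not counted. Of 251 called named genes in triple mutants, 200 were called under every alternative, as were 12 of 19 interactions. Against a minimum fold of 1.2, 1275 genes were called (837 higher, 438 lower) and 19 interactions. DESeq2 called 54 interactions. Leaving out 1 library each gave 1726 to 2029 called genes, 1084 to 1214 higher and 642 to 815 lower in triple mutants, 1340 to 2264 in wild type and 21 to 56 interactions. Leaving a library out also reduces the number of samples. Leaving out 1 library each also ended 1 to 5 of the 19 named interaction calls, and not every lost call is named here. The call lost without wild-type zymosan replicate 3 was that of hebp2. The other alternatives for these counts were within 1.5 times of the counts reported.

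Replicate numbers gave no clear pairing of the libraries. Deviations of same-numbered triple-mutant libraries correlated at 0.00439, 0.0583 and 0.0372, and those of different-numbered ones at -0.0729 to 0.0345. Same-numbered wild-type libraries gave -0.0365, -0.0136 and -0.101. With the replicate block, 2331 genes were called, 1412 higher and 919 lower, with 2223 shared with the fit without it, 1818 genes in wild type and 43 interactions. Rising lysosomal hydrolases numbered 5 with the block. Genes near 1 CPM rest on few counts, so that the folds of hamp and il1b are imprecise.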
